A study of Mus musculus with 65 samples.

Results

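The genes described here are the mouse genes with a symbol of the form Zfp and a number. They were selected on their level, as those with a mean of at least 5 CPM (the count over the library's total count, times 1000000) over the 6 wild-type (WT) bone-marrow-derived dendritic cell libraries at 0 h, leaving out Zfp36, which encodes an mRNA decay factor of another zinc finger type. Of 353 such symbols in a table of 23755 genes, 222 met the rule. Counts in the 6 WT 0 h libraries therefore chose the members, and comparisons that hold those libraries are given as descriptions. The study, titled for the role of transposable element expression in innate sensing, sequenced polyadenylated RNA of dendritic cells and RAW264.7 macrophages, mostly before and after bacterial lipopolysaccharide (LPS), in 65 libraries of 19 groups. Lipopolysaccharide is bound by TLR4, which signals through the adaptors MyD88 and TRIF.

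All dendritic cells were cultured from C57BL/6 bone marrow, and LPS was given at 100 ng/mL. The first set of groups holds cells labelled MyD88KO, cells labelled TrifKO and WT cells at 0, 2 and 4 h of LPS, with 3 libraries in each knockout group and 6, 5 and 6 WT libraries at 0, 2 and 4 h. A second set, all untreated, crosses Suv39h1KO and Suv39h1WT with IfnarKO and IfnarWT, with 3 libraries a group. Suv39h1 writes the repressive histone H3 lysine 9 methyl mark and Ifnar is the type I interferon receptor. The last set holds RAW264.7 macrophages, a BALB/c line transformed by a leukaemia virus, carrying guide RNAs named gRNA_1, gRNA_2 and gRNA_Ctrl, at 0 and 2 h of LPS with 3 libraries a group. What the guides target is not given in the labels; the titles call these RAW264.7 cells dendritic, and their 0 h libraries carry the stimulation label LPS at time 0. Whether libraries of a group came from separate cultures or animals is not stated throughout, so p-values measure the spread between these libraries, which may be technical.

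Library depth was 36879570 to 95292653 counts, with a median of 54709838. The label TrifKO was not matched by the gene that encodes TRIF. Ticam1 had 31.0, 29.8 and 31.7 CPM in the libraries labelled TrifKO at 0 h, 45.6, 50.3 and 2.94 at 2 h and 42.3, 37.3 and 2.46 at 4 h, against 25 to 58.4 CPM over the WT libraries. Only replicate 3 at 2 h and at 4 h was low. Which part of Ticam1 or of Myd88 was deleted is not given. Groups are called TrifKO-labelled for this reason, and the counts of called TrifKO-labelled members at 2 and 4 h, with their KRAB splits and overlaps, are also given without the low library of that time, a choice made after the data were seen. Myd88 had 46.2 to 48.6 CPM in MyD88KO libraries at 0 h, against 72.2 to 80.7 CPM in WT libraries, and Suv39h1 was at 0.11 to 0.371 CPM in Suv39h1KO libraries, against 36.9 to 64.6 CPM in Suv39h1WT libraries. The 3 TrifKO-labelled libraries at 0 h differed less from each other than those of MyD88KO did, with a chi-square over degrees of freedom of 6.53 to 21.1 a pair against 85.5 to 162. Library numbers in the labels fall into a low and a high run: MyD88KO libraries are all in the low run, TrifKO-labelled libraries all in the high run and WT libraries in both. Titles carry a cohort number, and most WT titles occur in both runs. Whether WT libraries of the same title share cells is not stated. The fits count them as separate, so p-values of comparisons with WT may be too small. Summed levels of 12 dendritic cell marker genes were 15600 to 29800 CPM in the dendritic cell libraries, while 7 of the 12, Flt3, H2-Ab1 and Ciita among them, were under 1 CPM in RAW264.7.

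Most Zfp genes encode proteins with a row of C2H2 zinc fingers, each a short fold around a zinc ion that reads a few bases of DNA. Many also carry a KRAB domain, which recruits the corepressor TRIM28 and with it the histone methyltransferase SETDB1, and these KRAB zinc finger proteins are known for silencing endogenous retroviruses and holding imprints. The family grew by local duplication, so that its members sit in clusters and share sequence. Members without KRAB include repressors and activators with other partner domains, RNA-binding proteins and ubiquitin ligases.

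Among the 222 members the longest coding transcript of 118 carried a KRAB A box, read as at least 11 of 16 recurring residues of the box in the GENCODE translation on GRCm38. The other 103 with a translation did not, and Zfp267 had none to read. KRAB members had a median of 12 C2H2 fingers and members without KRAB a median of 7, with a maximum of 37 over all members. Of the KRAB members 78.0% lay within 100 kb of another Zfp gene, compared with 28.2% of those without KRAB. Chromosome 7 held 51 members, chromosome 17 held 34, chromosome 8 held 18, chromosome 13 held 16 and chromosome 6 held 13. Over 10% of the 50-base words of a transcript recurred in another Zfp gene for 31 members, and over 50% for 8 of them (Zfp58, Zfp59, Zfp82, Zfp97, Zfp932, Zfp970, Zfp984 and Zfp991), so reads of these 8 may be split between copies and their values are uncertain.

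In WT cells at 0 h the members spanned 5.09 to 302 CPM with a median of 16.9. KRAB members sat lower, at a median of 12.9 CPM, than members without KRAB, at 25.5 CPM. The lowest members were Zfp963 at 5.09, Zfp82 at 5.12 and Zfp128 at 5.26 CPM, and just outside the rule were Zfp759 at 4.96, Zfp316 at 4.91 and Zfp532 at 4.84 CPM. Per kilobase of exon, the highest levels in WT cells at 0 h belonged to Zfp207 with 31.4 CPM per kb, a spindle assembly protein, Zfp106 with 29, an RNA-binding protein, Zfp217 with 24.8, whose human relative is a transcriptional corepressor, and Zfp706 with 22.2. The highest KRAB genes were Zfp869 at 21.7 CPM per kb, Zfp52 at 18.6 and Zfp445, a keeper of imprints, also at 18.6. These levels chose the members and carry no test.

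RefSeq start sites on GRCm38.p6 matched 185 of the 222 members. Windows of 300 bases, from 250 before to 50 after a start, are shown for 4 genes whose responses to LPS are described below: Zfp398 and Zfp932, which have a KRAB box and fell, and Zfp800 and Zfp263, which rose. The windows are chr6:47835411-47835710 on the plus strand for Zfp398, chr5:109996260-109996559 on the plus strand for Zfp932, chr6:28397956-28398255 on the minus strand for Zfp800 and chr16:3743849-3744148 on the plus strand for Zfp263. Each window spans a promoter and the first bases of the transcript. Capitals mark ACTACA or its reverse complement in Zfp932 and Zfp800, and the GC box and the ETS core in Zfp263.
Zfp398: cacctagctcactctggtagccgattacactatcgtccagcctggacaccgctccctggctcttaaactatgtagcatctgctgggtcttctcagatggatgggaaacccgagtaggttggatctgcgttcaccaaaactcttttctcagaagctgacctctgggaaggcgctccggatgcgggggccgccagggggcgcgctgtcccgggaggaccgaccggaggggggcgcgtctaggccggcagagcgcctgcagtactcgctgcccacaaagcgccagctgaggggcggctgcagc
Zfp932: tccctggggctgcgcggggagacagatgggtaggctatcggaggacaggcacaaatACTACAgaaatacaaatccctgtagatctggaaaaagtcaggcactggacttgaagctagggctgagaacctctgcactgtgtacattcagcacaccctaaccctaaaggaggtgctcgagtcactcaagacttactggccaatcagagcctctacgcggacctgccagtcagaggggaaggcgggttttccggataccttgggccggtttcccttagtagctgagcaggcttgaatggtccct
Zfp800: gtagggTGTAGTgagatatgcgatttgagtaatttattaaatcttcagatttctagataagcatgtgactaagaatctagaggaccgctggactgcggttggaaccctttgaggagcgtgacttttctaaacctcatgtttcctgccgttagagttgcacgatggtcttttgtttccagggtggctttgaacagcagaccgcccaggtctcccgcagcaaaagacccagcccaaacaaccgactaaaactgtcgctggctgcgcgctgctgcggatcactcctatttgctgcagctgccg
Zfp263: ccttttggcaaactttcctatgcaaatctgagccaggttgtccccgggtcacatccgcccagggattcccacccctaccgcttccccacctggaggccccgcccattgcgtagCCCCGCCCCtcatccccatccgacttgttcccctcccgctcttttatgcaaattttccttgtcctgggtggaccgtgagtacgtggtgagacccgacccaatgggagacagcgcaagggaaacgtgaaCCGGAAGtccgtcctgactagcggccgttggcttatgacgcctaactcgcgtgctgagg

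The window of Zfp398 held none of the 5 motifs searched on both strands, and an alternative start of Zfp800 on the same strand (chr6:28261875-28262174) held none either. The ETS core CCGGAAG was in a window of 22.7% of the members and of 9.93% of all 27025 symbols, and ACTACA, part of the element bound by the promoter factor ZNF143 in human, in one of 23.2% of the members and 11.8% of all. The GC box GGGGCGGGG was in a window of 4.81% of KRAB members, 31.2% of members without KRAB and 12.9% of all. The letters GGGA and TTCC parted by any 2 bases, as in an NF-kB site, were in a window of 3.24% of the members and 1.63% of all, and GAAA followed after any 2 bases by GAAA, as in an interferon response element, in 1.62% and 3.99%. The richest window of a KRAB member held a median of 12 CG dinucleotides, that of a member without KRAB 24, and that of any symbol 8. Motifs were counted separately, a window can hold several, and a match does not show a bound site. The symbols counted as all were not held to the floor of 5 CPM that members met. How far this floor bears on the gaps between members and all symbols was not tested.

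At 2 h of LPS Zfp genes fell more often than they rose in the cells labelled as lacking an adaptor, under either scaling tried. In MyD88KO cells at 2 h compared with 0 h, 67 of the 222 members fell and 15 rose (edgeR quasi-likelihood test, adjusted p under 0.05 over 14475 genes). The shares were 30.2% and 6.76% of the members, against 7.24% lower and 8.83% higher of all genes tested. At 4 h compared with 0 h, 49 members fell and 26 rose, where 17% of all genes were lower and 17.1% higher. In TrifKO-labelled cells 48 fell and 19 rose at 2 h, against 9.41% lower and 11.3% higher of all genes, and 19 fell and 26 rose at 4 h, against 11.5% and 14.4%. The genes tested were not held to the floor of 5 CPM in WT cells at 0 h that members met. Genes low at 0 h and raised by LPS can therefore be among all genes but not among members. How far this floor bears on these splits was not tested. Summed levels of 12 macrophage marker genes overlapped between times, at 5230 to 13400 CPM in MyD88KO cells at 2 h against 6220 to 14100 at 0 h, and at 8040 to 13800 CPM in TrifKO-labelled cells at 2 h against 12500 to 14000 at 0 h, and their part in the counts was not tested. In bulk RNA, fewer cells of a type and less RNA per cell cannot be told apart.

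The members' median log2 fold change was -0.23 in MyD88KO cells at 2 h, -0.14 at 4 h, -0.16 in TrifKO-labelled cells at 2 h and -0.01 at 4 h. Scaling moves these values: with total counts in place of trimmed-mean (TMM) factors the median of all genes was -0.23, -0.40, -0.27 and -0.23 in the same order, and the split of members became 106 down and 7 up, 120 and 8, 102 and 8, and 50 and 9, so that the TrifKO-labelled 4 h split turned round. Set against the median of all genes, which the scaling leaves out, members were at -0.22, -0.09, -0.14 and -0.01. Without TrifKO-labelled replicate 3 at 2 h, one of the libraries low for Ticam1, 37 fell and 17 rose, and without that replicate at 4 h 14 fell and 19 rose. The TrifKO-labelled counts also leaned on the 0 h libraries: without replicate 2 at 0 h 27 fell and 10 rose at 2 h, and 7 fell and 16 rose at 4 h, and without replicate 1 at 0 h 44 were called at 2 h.

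**Figure D1:**
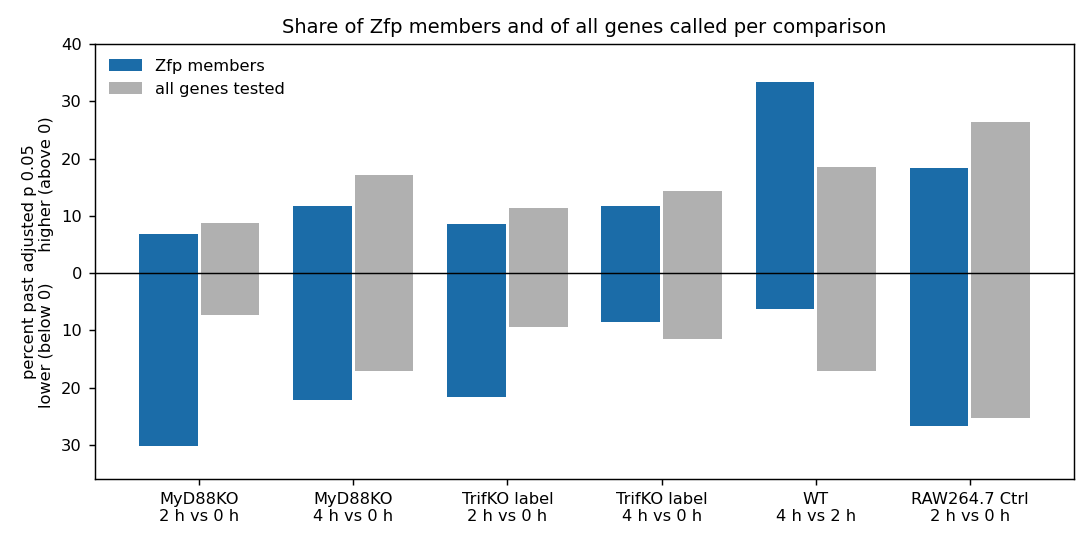
Percent of the Zfp members (blue) and of all genes tested (grey) called higher (above 0) and lower (below 0) in 6 comparisons of LPS times, after TMM scaling. At 2 h in MyD88KO cells 30.2% of members were lower, against 7.24% of all genes; without TMM factors the TrifKO-labelled 4 h and WT 4 h against 2 h splits turn round.

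Zfp41, a C2H2 gene without a KRAB box by the pattern used, was among the members that fell most. It had 6.18, 6.84 and 6.01 CPM in MyD88KO cells at 0 h, 2.21, 2.63 and 1.89 at 2 h and 2.66, 3.21 and 2.67 at 4 h. TrifKO-labelled cells had 4.23, 4.55 and 5.02 CPM at 0 h, 2.28, 1.4 and 1.76 at 2 h and 2.48, 3.01 and 2.13 at 4 h. In both series every LPS library lay under every 0 h library, with log2 fold changes at 2 h of -1.50 (SE 0.21, adjusted p = 5.58e-06) and -1.34 (SE 0.21, adjusted p = 2.46e-05). Zfp652, whose human relative is a repressor that works with the corepressor CBFA2T3, had 26.4, 27 and 27.6 CPM in MyD88KO cells at 0 h, 9.52, 11.8 and 10.5 at 2 h and 7.8, 11.5 and 7.82 at 4 h. Its TrifKO-labelled values were 16.5, 18.4 and 18 at 0 h, 5.9, 5.18 and 9.73 at 2 h and 9.65, 7.47 and 9.98 at 4 h. Again no LPS library reached a 0 h library, and the 2 h changes were -1.35 (SE 0.24, adjusted p = 0.000181) and -1.34 (adjusted p = 0.000174).

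The deepest fall was that of Zfp395, a gene without KRAB whose human relative responds to hypoxia. Its level was 11.5, 6.89 and 5.49 CPM in MyD88KO cells at 0 h, 2.65, 2.2 and 1.81 at 2 h and 1.56, 1.54 and 0.904 at 4 h. TrifKO-labelled cells had 6.16, 6.18 and 6.14 CPM at 0 h, 1.97, 1.13 and 0.961 at 2 h and 0.748, 1.38 and 1.32 at 4 h. The groups did not overlap, and the log2 fold changes were -1.84 (SE 0.32, adjusted p = 0.000126) and -2.57 (SE 0.33, adjusted p = 6.67e-07) in MyD88KO cells at 2 and 4 h, and -2.18 (adjusted p = 1.68e-05) and -2.42 (adjusted p = 4.79e-06) in TrifKO-labelled cells. Zfp398, the KRAB gene whose start window is printed above, had 3.21, 3.43 and 3.83 CPM in MyD88KO cells at 2 h against 5.94, 7.57 and 7.18 at 0 h, and 3.3, 3.3 and 3.7 CPM in TrifKO-labelled cells at 2 h against 6.48, 8.68 and 6.69 at 0 h. The 2 h groups lay under the 0 h groups in both, by -0.98 (SE 0.19, adjusted p = 0.000517) and -1.09 (SE 0.19, adjusted p = 0.000152).

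Falls were also called for the KRAB genes Zfp932, Zfp74 and Zfp157. Zfp932, a KRAB gene known in mouse for silencing retroviruses of the ERVK class, had 4.04, 4.08 and 4.25 CPM in MyD88KO cells at 2 h against 6.08, 5.63 and 6.71 at 0 h, a change of -0.57 (SE 0.15, adjusted p = 0.00701). The 2 h libraries were all lower, and in TrifKO-labelled cells the change was -0.67 (SE 0.15, adjusted p = 0.00155). With only the compared groups fitted the MyD88KO change missed the threshold (adjusted p = 0.0521), and Zfp932 is among the 8 genes with long shared sequence. Zfp74 fell by 1.12 on the log2 scale at 2 h in MyD88KO cells (SE 0.17, adjusted p = 1.43e-05), with 2.9, 4.14 and 3.44 CPM at 2 h against 8.15, 7.32 and 7.37 at 0 h. Zfp157 was at 4.68, 5.59 and 4.23 CPM in MyD88KO cells at 2 h against 11.9, 9.45 and 9.25 at 0 h (log2 fold change -1.08, SE 0.22, adjusted p = 0.000939). Neither pair of groups overlapped. At 2 h 8 members (3.6%) had log2 fold changes under -1 and 2 (0.901%) over 1 in MyD88KO cells, against 4.21% and 5.72% of all genes. In TrifKO-labelled cells 7 (3.15%) and 3 (1.35%) did, against 6.07% and 7.01%.

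KRAB members made up most of the falls at 2 h. In MyD88KO cells at 2 h 48 of the 118 KRAB members fell and 2 rose, with a median of -0.41, while 19 of the 103 without KRAB fell and 13 rose, with a median of -0.07; the median of all genes was -0.02. At 4 h 32 KRAB members fell and 5 rose, and 17 without KRAB fell and 21 rose. TrifKO-labelled cells at 2 h had 31 KRAB members down and 5 up with a median of -0.28, and 17 without KRAB down and 14 up with a median of 0.01. At 4 h the KRAB counts were 7 down and 6 up, and those without KRAB 12 down and 20 up. Without the replicate 3 low for Ticam1, KRAB counts in TrifKO-labelled cells were 24 down and 6 up at 2 h and 3 down and 6 up at 4 h, and those without KRAB 13 down and 11 up, and 11 down and 13 up. The division by KRAB was made after the counts were known and carries no test. Among KRAB members with little shared sequence, 37 of 94 fell in MyD88KO cells at 2 h. KRAB members apart from other Zfp genes had 14 of 26 down and a median of -0.52, and those within 100 kb of another had 34 of 92 down and a median of -0.38. Level moved with the split: of the 59 members under 10 CPM 32 fell and 1 rose (median -0.59), and of the 163 at 10 CPM or more 35 fell and 14 rose (median -0.13), and the part of level in the KRAB counts was not tested.

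**Figure D2:**
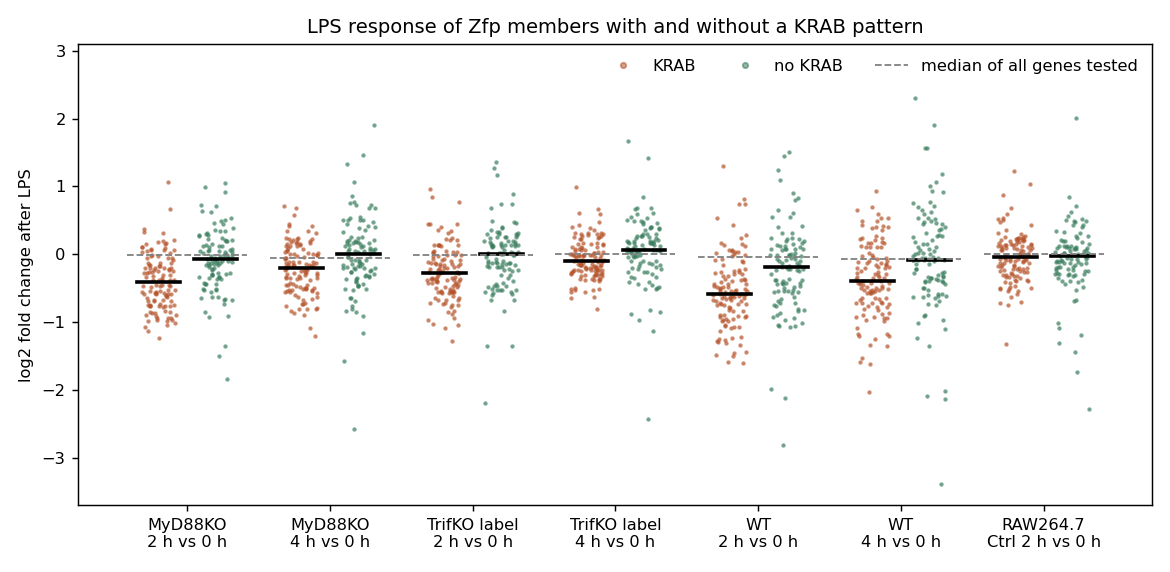
Each dot is the log2 fold change of a Zfp member between LPS times, orange for KRAB members and green for those without KRAB; black bars are medians and grey dashed lines the median of all genes tested. In MyD88KO cells at 2 h the KRAB median was -0.41 and that without KRAB -0.07, while in RAW264.7 cells both were -0.03.

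A smaller group rose, and 13 of the 15 risers in MyD88KO cells at 2 h had no KRAB box, although the rise of the KRAB gene Zfp456 there, described below, was 1.07. Zfp800 had 32.9, 29.4 and 31.4 CPM in MyD88KO cells at 0 h, 64.4, 58.9 and 53.1 at 2 h and 84.1, 80.2 and 95 at 4 h, each time above the last. In TrifKO-labelled cells it had 31.2, 34.7 and 34.6 CPM at 0 h, 57.4, 57.8 and 52.6 at 2 h and 51.3, 49.9 and 50.6 at 4 h, so both LPS groups lay above 0 h and the 4 h libraries under those at 2 h. The log2 fold changes were 0.91 (SE 0.14, adjusted p = 2.03e-05) and 1.47 (SE 0.14, adjusted p = 2.83e-09) in MyD88KO cells, and 0.74 (adjusted p = 0.000236) and 0.59 (adjusted p = 0.00185) in TrifKO-labelled cells, where total counts in place of TMM factors gave 0.48 and 0.36. Zfp366, which encodes DC-SCRIPT, a corepressor of nuclear receptors in dendritic cells, had 15.1, 11.8 and 17.7 CPM in MyD88KO cells at 0 h, 25.4, 25.1 and 37.9 at 2 h and 39.1, 41.1 and 87.5 at 4 h. TrifKO-labelled cells had 23.1, 23.8 and 24.4 CPM at 0 h, 47.9, 61.3 and 74.9 at 2 h and 70.6, 59.6 and 96.5 at 4 h. No LPS library was as low as the 0 h libraries of its own series, and the 4 h changes were 1.91 (SE 0.35, adjusted p = 0.000108) and 1.67 (SE 0.35, adjusted p = 0.000764).

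Zfp263, whose human relative binds GA-rich DNA, rose early and was lower again at 4 h. It had 64.3, 60.8 and 77.7 CPM in MyD88KO cells at 0 h, 99.1, 107 and 127 at 2 h and 58.3, 66.3 and 79 at 4 h, and 68.7, 67.2 and 68.9, then 170, 155 and 136, then 95.8, 102 and 99.6 CPM at the same times in TrifKO-labelled cells. At 2 h it was up by 0.71 (SE 0.14, adjusted p = 0.000575) and 1.17 (SE 0.14, adjusted p = 7.43e-07), and the MyD88KO libraries at 4 h overlapped those at 0 h. Zfp131, a BTB-domain transcription factor, had 47.3, 49.4 and 46.2 CPM in MyD88KO cells at 2 h against 26.3, 31 and 34.5 at 0 h, with no overlap (log2 fold change 0.64, SE 0.10, adjusted p = 5.13e-05), and rose by 0.74 (SE 0.10, adjusted p = 6.16e-06) in TrifKO-labelled cells. Zfp275 had 30.5, 30.6 and 27.7 CPM in MyD88KO cells at 2 h against 19, 18.1 and 16.7 at 0 h (0.72, SE 0.11, adjusted p = 2.45e-05), and 30.5, 30.5 and 27.7 in TrifKO-labelled cells at 2 h against 19.8, 22.4 and 21.5 at 0 h (0.48, SE 0.11, adjusted p = 0.00215). Both pairs of groups were apart. As a description, Zfp275 in WT cells had 21.6, 21.2, 21.5, 23.6 and 22.9 CPM at 2 h, inside the WT range of 17.1 to 24.2 CPM at 0 h. Zfp513 had 32.2, 27.4 and 33.8 CPM in MyD88KO cells at 0 h, 49.3, 43.8 and 50.1 at 2 h and 75.8, 48.8 and 71.9 at 4 h, with all LPS libraries above those at 0 h and a change of 1.07 at 4 h (SE 0.15, adjusted p = 3.72e-06). With total counts in place of TMM factors Zfp131 changed by 0.42 and 0.48, and Zfp275 in TrifKO-labelled cells no longer passed (0.22, adjusted p = 0.227).

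**Figure D3:**
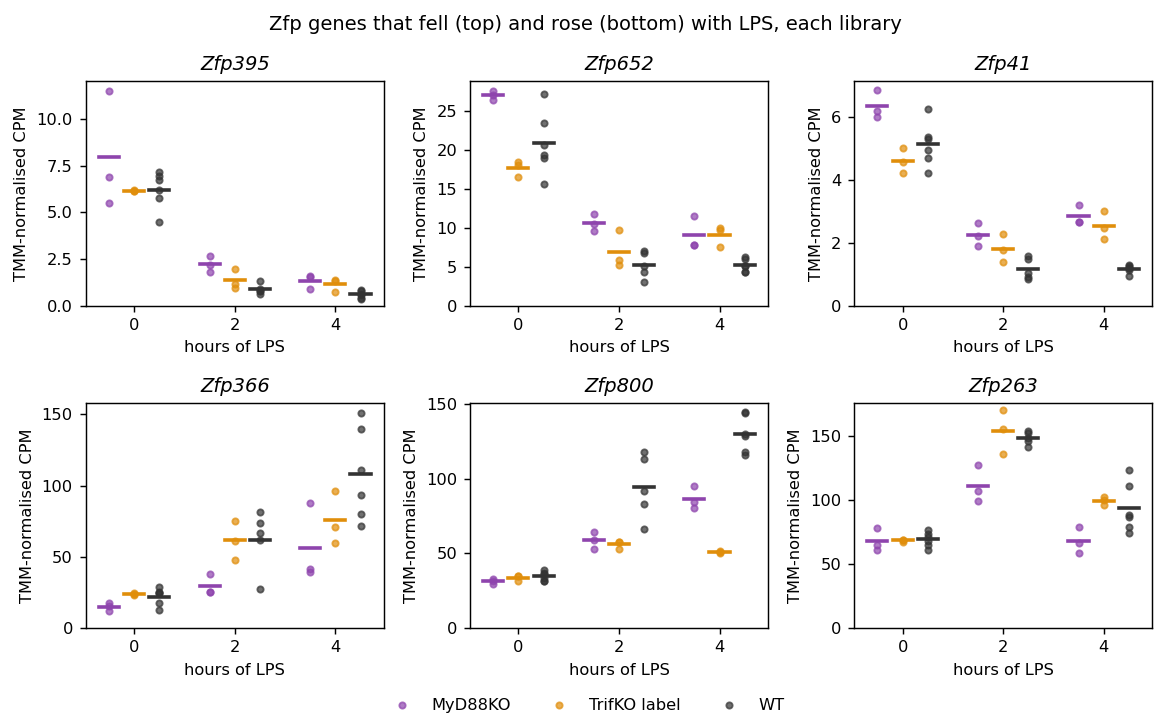
TMM-scaled CPM of 6 Zfp genes in each library (points) with group means (bars), for cells labelled MyD88KO, cells labelled TrifKO and WT cells at 0, 2 and 4 h of LPS. Zfp395, Zfp652 and Zfp41 were lower at 2 and 4 h than at 0 h, while Zfp366, Zfp800 and Zfp263 were higher at 2 h.

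WT cells hold the 0 h libraries that chose the members, so their changes from 0 h are a description. The counts here are of members past edgeR's threshold, and nothing is read from them. At 2 h 131 members were lower and 23 higher, where 24.6% of all genes were lower and 21.3% higher, and at 4 h 107 were lower and 46 higher, where 35.1% were lower and 30.0% higher. Zfp395 had a lowest, median and highest level of 4.5, 6.46 and 7.15 CPM at 0 h, then 0.78, 0.788, 0.637, 1.31 and 0.882 CPM in the 5 libraries at 2 h, then 0.353, 0.609 and 0.838 CPM at 4 h. Zfp41 had 4.22, 5.12 and 6.24 CPM at 0 h, 1.05, 0.915, 0.84, 1.56 and 1.47 at 2 h, and 0.943, 1.19 and 1.28 at 4 h. Their log2 fold changes at 2 h were -2.81 and -2.12, and none of the LPS libraries reached the range at 0 h. Zfp800 had 31.2, 34.9 and 38.4 CPM at 0 h, 113, 118, 92.1, 66.3 and 83.2 at 2 h, and 116, 130 and 145 at 4 h, and its changes were 1.45 and 1.91. Zfp366 changed by 1.50 and 2.30, the largest rise among the members at both times. KRAB members had a median of -0.58 at 2 h and those without KRAB -0.19.

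Between 2 and 4 h, which leaves the 0 h libraries out, 74 members of WT cells rose and 14 fell with TMM scaling, against 18.6% higher and 17.1% lower of all genes, but without TMM factors the split turned round, to 17 up and 55 down. The members' median lay 0.17 above that of all genes with TMM factors and 0.16 above it without. Within the low run of libraries 26 rose and 10 fell, and within the high run 60 rose and 12 fell. KRAB members had 36 up and 7 down at a median of 0.17, and those without KRAB 37 up and 7 down at 0.14. Zfp952 had a lowest, median and highest level of 15.2, 18.4 and 22.3 CPM at 4 h against 10.3, 9.7, 7.77, 10.4 and 10.8 at 2 h, with no overlap (0.93, SE 0.10, adjusted p = 6.92e-08). Zfp128 had 4.11, 4.78 and 6.91 CPM at 4 h against 3.04, 3.18, 2.11, 2.01 and 2.87 at 2 h (1.01, SE 0.15, adjusted p = 5.75e-06), and Zfp827, whose human relative binds telomeres with the NuRD complex, had 14.2, 18.6 and 30.1 CPM at 4 h against 9.31, 10.1, 6.04, 6.19 and 6.69 at 2 h (1.41, SE 0.22, adjusted p = 1.14e-05). Every 4 h library of these genes was above every 2 h library.

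Some members fell at 2 h and were higher again by 4 h. Zfp128, a KRAB gene, had 4.75, 4.09 and 4.96 CPM in MyD88KO cells at 0 h, 2, 1.79 and 2.1 at 2 h and 3.49, 4.1 and 4.14 at 4 h. Its change at 2 h was -1.23 (SE 0.20, adjusted p = 5.98e-05), and between 2 and 4 h it rose by 1.00 (SE 0.20, adjusted p = 0.00107). Zfp90, a KRAB gene, had 20.1, 15.9 and 17.8 CPM at 0 h, 10.2, 7.66 and 8.63 at 2 h and 17.4, 14.7 and 16.2 at 4 h, a fall of 1.02 on the log2 scale (SE 0.18, adjusted p = 0.000111) and then a rise of 0.87 (SE 0.18, adjusted p = 0.00108). For both genes the 2 h libraries lay under those at 0 h and at 4 h. Over all members 23 rose and 5 fell between 2 and 4 h in MyD88KO cells, against 7.47% and 4.67% of all genes, and 9 rose and 11 fell without TMM factors. Same-numbered MyD88KO libraries deviated together, and with their number as a block 59 were called in place of 28. Leaving out replicate 3 at 4 h left 11, replicate 1 at 2 h 15 and replicate 2 at 2 h 17. In TrifKO-labelled cells 2 rose and 1 fell by edgeR between 2 and 4 h, against 0.594% and 0.580% of all genes, with 11 called by DESeq2.

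The responses of MyD88KO and TrifKO-labelled cells, each against its own 0 h libraries, share no library. Of the 67 members that fell in MyD88KO cells at 2 h, 42 also fell in TrifKO-labelled cells, which is 62.7% of the first list and 87.5% of the second. Of the risers 10 were shared, 66.7% and 52.6%, and 0 members moved in opposite directions. Log2 fold changes of the 222 members had a Pearson r of 0.85 at 2 h and 0.71 at 4 h, across genes of the same 2 pairs of groups. Overlaps and correlations over all genes are not given, so nothing particular to the members is read from these. At 4 h 15 fallers were shared, 30.6% and 78.9%, and 12 risers, 46.2% and 46.2%. Without the TrifKO-labelled replicate 3 low for Ticam1, 34 fallers and 8 risers were shared at 2 h and 11 and 9 at 4 h. At 4 h Zfp523 and Zfp719 were called in opposite directions. The rise of Zfp523 in TrifKO-labelled cells (adjusted p = 0.0361) was lost on leaving out any of 5 of its 6 libraries, and the fall of Zfp719 in MyD88KO cells (adjusted p = 0.0466) any of 4 of 6.

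The difference between the responses was tested as TrifKO-labelled minus MyD88KO. At 2 h 1 member was higher and 1 lower, against 0.0898% and 0.166% of all genes, and at 4 h 5 were higher and 3 lower, against 1.46% and 3.09%. Without the low replicate 3 of that time the call of Zfp703 was the 1 left at 2 h, and 4 were higher and 3 lower at 4 h. Zfp703, a corepressor gene linked to breast cancer in human, had 93.7, 91.9 and 54.5 CPM in TrifKO-labelled cells at 2 h against 34.3, 32.1 and 32.4 at 0 h, and 18.2, 25.3 and 23.9 CPM in MyD88KO cells at 2 h against 24.2, 29.6 and 28.9 at 0 h. The first pair of groups was far apart and the second overlapped, and the difference was 1.58 (adjusted p = 0.00317) at 2 h and 1.25 (adjusted p = 0.00335) at 4 h. Zfp719, a KRAB gene, had 14.8, 15.4 and 8.43 CPM in TrifKO-labelled cells at 4 h against 6.59, 6.18 and 6.56 at 0 h, and 4.87, 5.1 and 6.48 CPM in MyD88KO cells at 4 h against 8.15, 6.36 and 7.92 at 0 h. Its difference was 1.45 (adjusted p = 0.000302). For both genes the lowest LPS library labelled TrifKO was replicate 3, the replicate low for Ticam1. WT replicate 3 of the high run was also the lowest of its run at 2 and 4 h. It had 44.3 and 29.7 CPM of Zfp703, 10.8 and 9.92 of Zfp719, and 38 and 34.3 of Ticam1.

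The remaining differences described here were of Zfp800, Zfp319, Zfp456 and Zfp523. Zfp800 differed by -0.87 (adjusted p = 0.00489) at 4 h, and Zfp319 by -0.67 (adjusted p = 0.0135). Zfp319 had 19.5, 18.1 and 17.1 CPM in TrifKO-labelled cells at 4 h against 17.7, 17.9 and 16.7 at 0 h, which overlapped, and 32.4, 30.6 and 28.4 CPM in MyD88KO cells at 4 h against 17, 18.8 and 19.2 at 0 h, which did not. Zfp456, a KRAB gene, had 6.29, 5.54 and 6.13 CPM in TrifKO-labelled cells at 2 h against 5.74, 5.67 and 6.04 at 0 h, and 12.8, 10.8 and 16.8 CPM in MyD88KO cells at 2 h against 6.05, 5.68 and 7.52 at 0 h. Its rise in MyD88KO cells was 1.07 (SE 0.15, adjusted p = 1.17e-05), and its difference between the responses was -1.03 (adjusted p = 0.0299), a call lost on leaving out any of 10 of the 12 libraries in turn. Zfp523 was 1.18 (adjusted p = 0.00302) higher in the TrifKO-labelled response at 4 h, with 27.5, 31.4 and 31.7 CPM at 4 h against 22.6, 21 and 20.8 at 0 h, and 16.3, 23.5 and 16.8 CPM in MyD88KO cells at 4 h against 23.5, 31.7 and 35.9 at 0 h. Its TrifKO-labelled groups were apart and its MyD88KO groups met at 23.5 CPM.

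**Figure D4:**
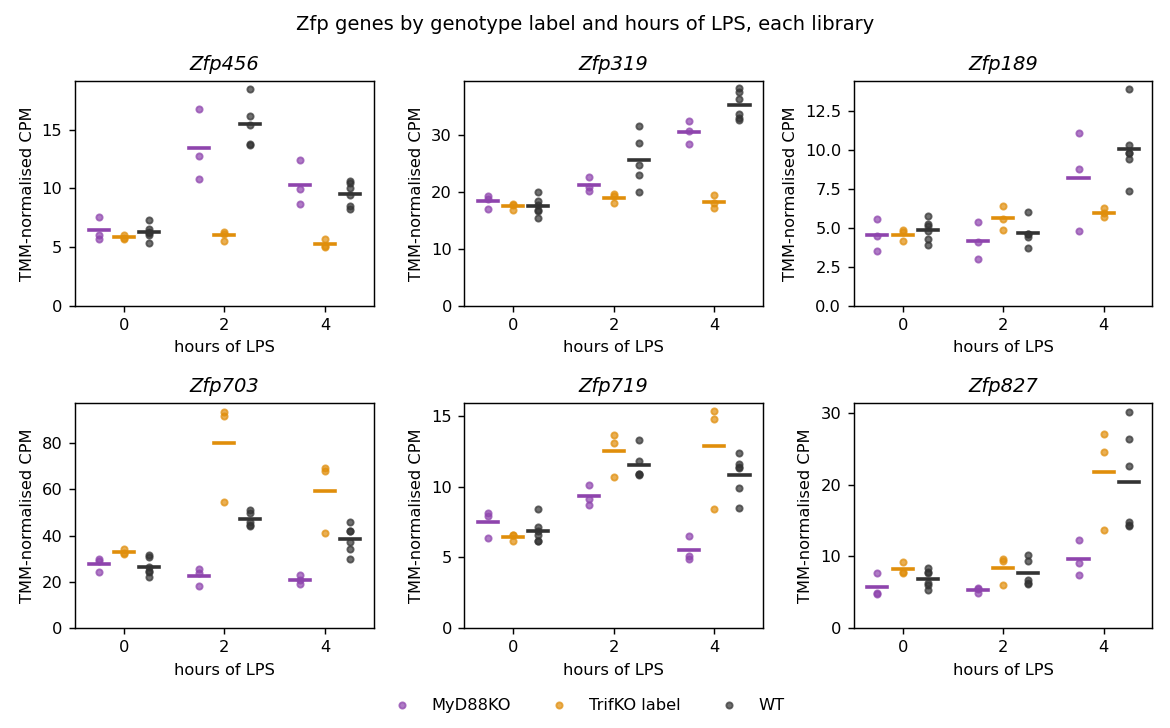
TMM-scaled CPM of 6 Zfp genes in each library (points) with group means (bars), by genotype label and hours of LPS. Zfp456 lay at 4.99 to 6.29 CPM and Zfp319 at 16.7 to 19.6 CPM in TrifKO-labelled cells at all times, while Zfp703 was at 54.5 to 93.7 CPM at 2 h in TrifKO-labelled cells, 18.2 to 25.3 CPM in MyD88KO cells and 44.3 to 50.9 CPM in WT cells.

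Set against WT libraries of both runs at the same time, more members were higher than lower in both knockout labels. For MyD88KO at 2 h only 1 member, which was lower, passed the threshold against WT libraries of its own run, as given below. That run holds only replicates 1 and 3 of WT at 2 h. Of the members named by fold change, those called with both runs kept their direction against that run. At 4 h 39 were higher and 18 lower in MyD88KO cells, where 13.7% of all genes were higher and 14.6% lower, and 71 were higher and 29 lower in TrifKO-labelled cells, where the shares were 17.7% and 15.6%. At 2 h the counts were 23 and 7 in MyD88KO cells, against 5.80% and 7.03% of all genes, and 16 and 6 in TrifKO-labelled cells, against 1.09% and 2.54%. Members' medians lay above those of all genes by 0.10 and 0.10 in MyD88KO cells at 2 and 4 h, and by 0.18 and 0.15 in TrifKO-labelled cells. Without TMM factors the splits were wider, with 149 higher and 7 lower for MyD88KO and 160 and 5 for TrifKO-labelled cells at 4 h, and 83 and 4, and 28 and 3, at 2 h. That scaling put the median of all genes at 0.35 for MyD88KO and 0.42 for TrifKO-labelled cells at 4 h, and at 0.24 and 0.11 at 2 h.

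These counts differed between library runs. Shares of all genes called within each run are not given, so nothing particular to the members is read from the counts within runs. Against WT libraries of its own low run, MyD88KO had 14 higher and 10 lower at 4 h and 1 lower at 2 h, and against those of the high run 48 higher and 19 lower at 4 h and 63 and 17 at 2 h. TrifKO-labelled cells had 76 higher and 30 lower at 4 h and 40 and 4 at 2 h against their own high run, and 49 and 23, and 5 and 4, against the low run. Without MyD88KO replicate 2 or 3 at 4 h 32 and 33 members were called, of 57, and without TrifKO-labelled replicate 3 at 4 h 60 were higher and 28 lower. Without that replicate at 2 h 15 were higher and 4 lower. The 2 h counts against WT moved most. MyD88KO had 12, 17, 19, 16 and 55 called of 30 without its replicate 2, its replicate 3, WT replicate 1 or 2 of the high run, or WT replicate 1 of the low run, and TrifKO-labelled cells had 7, 6 and 11 of 22 without their replicate 1, their replicate 2 or WT replicate 2 of the high run.

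Zfp398 stayed higher in both labels at 4 h, with 2.92, 3.88 and 2.99 CPM in MyD88KO cells and 4.43, 3.93 and 4.09 in TrifKO-labelled cells, against a lowest, median and highest level of 1.26, 1.63 and 2.15 CPM in WT cells. No library overlapped WT, and the log2 fold changes were 0.97 (SE 0.17, adjusted p = 9.17e-05) and 1.31 (SE 0.16, adjusted p = 3.03e-07), with 0.91 (adjusted p = 0.00403) for MyD88KO and 1.40 (adjusted p = 1.88e-06) for TrifKO-labelled cells within their own runs. Zfp41 was higher by 1.28 (SE 0.18, adjusted p = 5.89e-06) and 1.12 (SE 0.18, adjusted p = 1.14e-05), and within their own runs by 1.30 and 1.12. Zfp704 had 32.6, 36.5 and 25.7 CPM in MyD88KO cells and 26.5, 27.3 and 43.5 in TrifKO-labelled cells at 4 h, against 6.34, 12.6 and 18.9 CPM in WT cells. Every MyD88KO and TrifKO-labelled library at 4 h was above every WT library, and it was higher by 1.32 (SE 0.26, adjusted p = 0.000372) and 1.36 (SE 0.26, adjusted p = 0.000135), within their own runs by 1.12 and 1.62. Zfp369, whose protein interacts with the neurotrophin receptor p75, had 9.71, 8.55 and 8.35 CPM in TrifKO-labelled cells at 4 h against a lowest, median and highest level of 2.33, 3.65 and 4.44 CPM in WT cells. The groups were apart, by 1.34 (SE 0.25, adjusted p = 8.84e-05), and by 1.17 (adjusted p = 6.84e-05) within the high run.

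Among the members that were lower than in WT cells at 4 h, Zfp800 differed by -0.59 (SE 0.12, adjusted p = 0.000572) in MyD88KO cells and -1.37 (SE 0.13, adjusted p = 1.33e-09) in TrifKO-labelled cells, within their own runs by -0.47 and -1.47. All MyD88KO and TrifKO-labelled libraries at 4 h, at 49.9 to 95 CPM, lay under the WT range of 116 to 145. Zfp513 was lower by -0.76 (SE 0.14, adjusted p = 0.000159) and -0.88 (SE 0.14, adjusted p = 9.76e-06), with 75.8, 48.8 and 71.9 CPM in MyD88KO cells and 62.4, 59.8 and 57.7 in TrifKO-labelled cells, against 90, 114 and 126 in WT cells. Zfp319 was lower in TrifKO-labelled cells by -0.95 (SE 0.11, adjusted p = 3.53e-08), where WT cells had 32.6, 35 and 38.3 CPM, and Zfp719 in MyD88KO cells by -0.98 (SE 0.16, adjusted p = 3.83e-05), where WT cells had 8.5, 11.4 and 12.4 CPM. Within their own runs these were -0.99 and -0.92. With total counts in place of TMM factors the change of Zfp800 in MyD88KO cells missed the threshold (-0.25, adjusted p = 0.0581), and those of Zfp513 were -0.41 and -0.49, of Zfp319 -0.57 and of Zfp719 -0.64. At 0 h the WT libraries chose the members, so counts against them are a description, and nothing is read from them. By edgeR 0 members passed in either label, with 5 in MyD88KO and 8 in TrifKO-labelled cells at an unadjusted p under 0.05. DESeq2 called 0 in each, and edgeR called 0.0622% and 0% of all genes.

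Members with a known role were counted by lists compiled from general knowledge. Of 12 members of RNA binding and ribosome control, 2 rose (16.7%) and 1 fell (8.33%) in MyD88KO cells at 2 h, against 8.83% higher and 7.24% lower of all genes, and 2 rose in TrifKO-labelled cells, against 11.3%. Zfp598, the ubiquitin ligase of collided ribosomes, had 83.5, 93.8 and 71 CPM in TrifKO-labelled cells at 2 h against 50.5, 50.4 and 54.3 at 0 h, with no overlap (0.68, SE 0.15, adjusted p = 0.00158, and 0.42 without TMM factors). Of 5 signalling members 1 fell (20%) in each of the 2 groups at 2 h, against 7.24% and 9.41% of all genes, and Zfp91, a ubiquitin ligase of non-canonical NF-kB signalling, had 109, 128 and 108 CPM in MyD88KO cells at 2 h against 122, 128 and 119 at 0 h and did not pass the test. Of 36 members of transcription and chromatin control, 7 rose (19.4%) and 6 fell (16.7%) in MyD88KO cells at 2 h, and 10 rose (27.8%) and 4 fell (11.1%) at 4 h, where 17.1% of all genes were higher and 17% lower. These lists are short, and nothing particular to them is read from the counts.

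The 7 members with a published part in silencing transposons or holding imprints included 2 that fell (28.6%) in MyD88KO cells at 2 h, against 7.24% of all genes, and 1 that rose (14.3%) and 2 that fell (28.6%) in TrifKO-labelled cells, against 11.3% and 9.41%. In RAW264.7 cells, described below, 2 of 6 rose and 1 fell, against 26.3% and 25.3% of all genes. Those that fell at 2 h in MyD88KO cells were Zfp932, described above, and Zfp961, which changed by -0.90 (SE 0.15, adjusted p = 9.77e-05). Zfp809, which binds the primer site of murine leukaemia viruses, had 18.9, 15.2 and 18.1 CPM in MyD88KO cells at 2 h against 21.1, 16 and 16.9 at 0 h, and did not pass the test (adjusted p = 0.92). Zfp445 had 114, 111 and 96.5 CPM against 108, 97.4 and 96.6, and did not pass either. Between 2 and 4 h Zfp809 rose in MyD88KO cells by 0.63 (SE 0.18, adjusted p = 0.023). Its 4 h libraries, at 27.9, 17.3 and 35.4 CPM, overlapped those at 2 h. In WT cells it rose by 0.40 (adjusted p = 0.022) between these times, and passed in neither run alone (adjusted p = 0.134 and 0.224). Zfp568, a repressor of a placental Igf2 promoter, rose in TrifKO-labelled cells at 2 h by 0.85 (SE 0.15, adjusted p = 0.000131), with 51.3, 54.4 and 38.7 CPM at 2 h against 25.9, 26.4 and 28.1 at 0 h, while in MyD88KO cells the change was 0.33 (adjusted p = 0.139).

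Genes of silencing by KRAB proteins, and of histone and DNA methylation more widely, were counted from a list of 26 tested. The list holds Kdm4a, a histone demethylase. It was among the risers in MyD88KO cells at 4 h (1.32, adjusted p = 3.95e-05) and in TrifKO-labelled cells at 2 and 4 h. In MyD88KO cells 4 rose (15.4%) and 2 fell (7.69%) at 2 h, against 8.83% and 7.24% of all genes, and 7 rose (26.9%) and 5 fell (19.2%) at 4 h, against 17.1% and 17%. In TrifKO-labelled cells 4 rose and 3 fell at 2 h, against 11.3% and 9.41%, and 4 rose and 2 fell at 4 h, against 14.4% and 11.5%. Setdb1, the methyltransferase, had 57.5, 53.7 and 59.1 CPM in MyD88KO cells at 0 h, 34.1, 37 and 41.7 at 2 h and 36.5, 39.1 and 45 at 4 h. LPS libraries were all under the 0 h libraries, and the change was -0.59 (SE 0.11, adjusted p = 0.000342) in MyD88KO and -0.68 (adjusted p = 6.15e-05) in TrifKO-labelled cells at 2 h. Trim28, the corepressor that KRAB binds, had 113, 110 and 132 CPM at 0 h, 100, 107 and 135 at 2 h and 85.7, 87.3 and 80.8 at 4 h in MyD88KO cells, overlapping at 2 h (-0.06, adjusted p = 0.871) and lower at 4 h (-0.49, adjusted p = 0.00669). Chd4, an ATPase of the NuRD complex, rose by 0.85 (adjusted p = 3.61e-06) in MyD88KO cells at 2 h.

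In RAW264.7 macrophages with the control guide, members fell at about the share of all genes and rose at a lower share, with TMM scaling. At 2 h of LPS compared with 0 h, 58 of 218 members tested fell and 40 rose, 26.6% and 18.3%, against 25.3% lower and 26.3% higher of all 13078 genes tested. The members' median lay 0.03 under that of all genes, and without TMM factors 97 fell and 20 rose, with the median of all genes at -0.18. KRAB members had 26 down and 18 up of 117 and those without KRAB 32 down and 22 up of 100, with a median of -0.03 in each. Zfp710 fell most: it had 50.1, 51.3 and 41.2 CPM at 2 h against 236, 243 and 211 at 0 h, a change of -2.28 (SE 0.18, adjusted p = 1.37e-08). Zfp219 had 9.46, 9.57 and 7.81 CPM at 2 h against 24.3, 24.5 and 23.9 at 0 h (-1.44, SE 0.09, adjusted p = 4.92e-10), and Zfp362 had 4.49, 5.2 and 5.47 CPM at 2 h against 12.7, 13.1 and 11.9 at 0 h (-1.31, SE 0.11, adjusted p = 2.2e-08). The 2 times were far apart for each of these.

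The largest rise in RAW264.7 was that of Zfp703, with 56.5, 51.2 and 63.1 CPM at 2 h against 15, 13.9 and 13.6 at 0 h (2.00, SE 0.12, adjusted p = 2.1e-10). Zfp719 had 39, 36.9 and 43.2 CPM at 2 h against 16.7, 16.7 and 17.2 at 0 h (1.24, SE 0.10, adjusted p = 1.33e-08), and Zfp945, a KRAB gene, had 8.13, 8.2 and 8.38 CPM at 2 h against 3.98, 4.16 and 3.95 at 0 h (1.03, SE 0.11, adjusted p = 5.61e-07). In all 3 genes the 2 h libraries stood clear of the 0 h libraries. Zfp568 had 77.6, 76.2 and 85.2 CPM at 2 h against 53, 50.1 and 45.9 at 0 h, up by 0.68 (SE 0.08, adjusted p = 1.78e-06).

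RAW264.7 and dendritic cell libraries are separate, and their changes at 2 h of LPS were set side by side. The members that fell in both MyD88KO dendritic cells and RAW264.7 numbered 28, 41.8% of the dendritic list and 48.3% of the RAW264.7 list, and 7 rose in both, 46.7% and 17.5%. Across 218 members the log2 fold changes had a Pearson r of 0.41, and of 0.55 between TrifKO-labelled cells and RAW264.7. Here too the values over all genes are not given. Zfp217, Zfp287, Zfp329 and Zfp949 were called in opposite directions in MyD88KO cells and RAW264.7, although the MyD88KO call of Zfp217 was lost without MyD88KO replicate 2 at 0 h or replicate 3 at 2 h. A group of 19 members, Zfp41, Zfp652 and Zfp398 among them, fell at 2 h in MyD88KO cells, TrifKO-labelled cells and RAW264.7, and 18 did without TrifKO-labelled replicate 3. Zfp263, Zfp275, Zfp513, Zfp598, Zfp622 and Zfp800 rose in all 3, with or without that library, but not every call was stable. WT dendritic cells are not among these 3, and there Zfp275 at 2 h lay inside its 0 h range. The calls of Zfp513 in TrifKO-labelled cells (adjusted p = 0.0321) and Zfp598 in MyD88KO cells (adjusted p = 0.0363) were lost without any of 4 of the 6 libraries, and that of Zfp622 in MyD88KO cells (adjusted p = 0.0449) without any of 5 and in TrifKO-labelled cells without replicate 2 at 0 h (0.31, adjusted p = 0.0564). Zfp41 had 4.97, 3.98 and 3.74 CPM in RAW264.7 at 2 h against 9.59, 9.57 and 9.78 at 0 h (-1.19, SE 0.15, adjusted p = 3.88e-06), and Zfp800 had 60, 62 and 64 CPM at 2 h against 41.4, 44.5 and 40.4 at 0 h (0.56, SE 0.07, adjusted p = 2.25e-06).

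**Figure D5:**
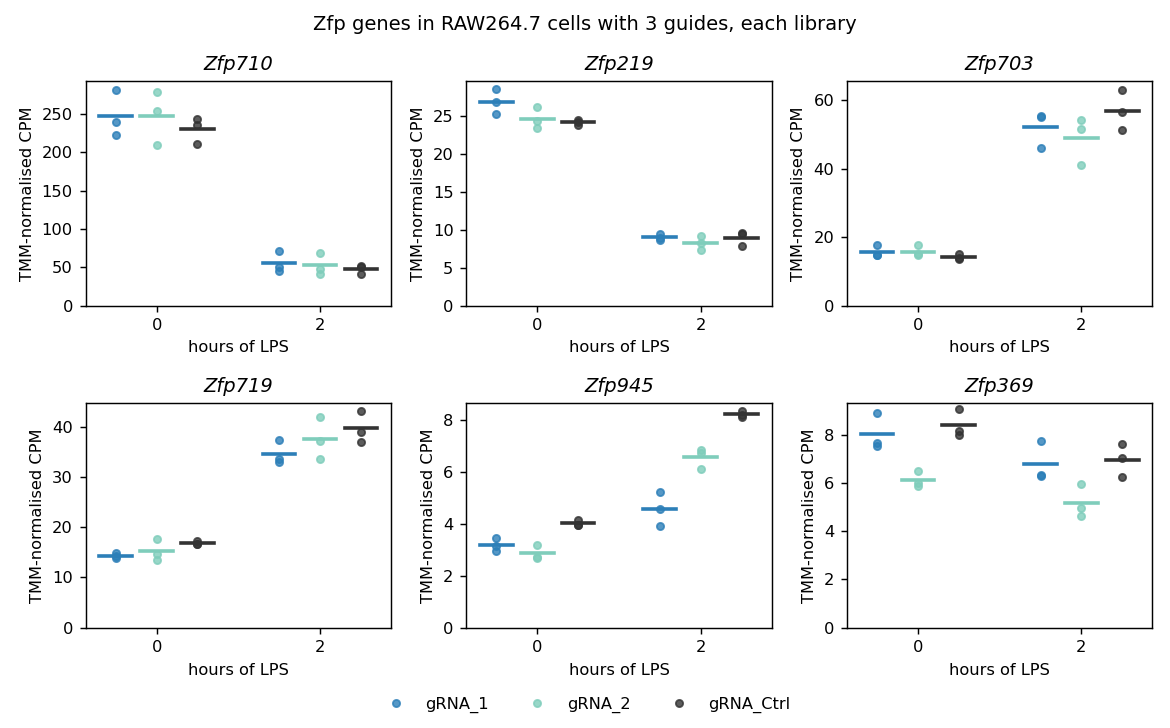
TMM-scaled CPM of 6 Zfp genes in each RAW264.7 library (points) with group means (bars), for gRNA_1, gRNA_2 and gRNA_Ctrl at 0 and 2 h of LPS. Zfp710 and Zfp219 were lower at 2 h and Zfp703 and Zfp719 higher with every guide. Zfp945 at 2 h lay at 3.94 to 5.23 CPM with gRNA_1, 6.13 to 6.85 CPM with gRNA_2 and 8.13 to 8.38 CPM with gRNA_Ctrl.

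The LPS responses with gRNA_1 and gRNA_2 were set beside that with gRNA_Ctrl, with which they share no library. With gRNA_1 45 members rose and 57 fell, against 26.2% and 25.1% of all genes, and with gRNA_2 44 rose and 56 fell, against 26.3% and 24.5%. Of the fallers 49 were shared between gRNA_1 and gRNA_Ctrl (86.0% and 84.5%) and 49 between gRNA_2 and gRNA_Ctrl (87.5% and 84.5%), and 39 and 37 risers were shared, with 0 in opposite directions. The shared portion over all genes is not given.

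Few members were called between guides. At 0 h 0 members passed edgeR's test for gRNA_1 against gRNA_Ctrl, with 18 at an unadjusted p under 0.05 and 3 by DESeq2, where 2.24% of all genes were called. For gRNA_2 at 0 h 5 were lower, against 1.94% of all genes lower and 2.58% higher, and 0, 1, 2 and 0 were called without gRNA_2 replicate 1, gRNA_2 replicate 2, gRNA_Ctrl replicate 1 or gRNA_Ctrl replicate 2. At 2 h gRNA_1 had 1 higher and 3 lower, against 1.61% and 1.48%, and 1 or 2 were called without gRNA_1 replicate 1 or any of the gRNA_Ctrl libraries. At 2 h gRNA_2 had 12 lower, against 2.42% lower and 3.54% higher, and 0, 5, 1 and 2 were called without its replicate 1, its replicate 2, gRNA_Ctrl replicate 1 or gRNA_Ctrl replicate 2. Zfp945 at 2 h was the clearest, with 4.58, 3.94 and 5.23 CPM in gRNA_1 cells against 8.13, 8.2 and 8.38 in gRNA_Ctrl cells (-0.85, SE 0.11, adjusted p = 0.00019). The gRNA_1 libraries were all lower, also at 0 h, with 2.96, 3.14 and 3.46 CPM against 3.98, 4.16 and 3.95. The gRNA_2 libraries were under every gRNA_Ctrl library too, with 2.67, 2.74 and 3.21 CPM at 0 h and 6.85, 6.74 and 6.13 at 2 h.

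Loss of Suv39h1 or Ifnar moved 0 members past edgeR's threshold in untreated dendritic cells. For Suv39h1KO against Suv39h1WT 8 members had an unadjusted p under 0.05 in IfnarWT cells and 15 in IfnarKO cells, DESeq2 called 2 and 1, and 0.209% and 0.222% of 14386 genes tested were called. For IfnarKO against IfnarWT the unadjusted count and that by DESeq2 were 0, and 0.125% of all genes were called. Zfp110, a KRAB gene whose protein interacts with the neurotrophin receptor p75, had 33.5, 36.7 and 36.4 CPM in Suv39h1KO IfnarWT cells against 45.9, 45.7 and 54.6 in Suv39h1WT IfnarWT cells. In IfnarKO cells it had 29.5, 34.8 and 38 CPM with Suv39h1KO against 46.6, 48 and 51.4 with Suv39h1WT. Neither pair of groups overlapped, but the log2 fold changes of -0.45 (SE 0.11, adjusted p = 0.297) and -0.51 (SE 0.11, adjusted p = 0.16) did not pass. Same-numbered libraries deviated together in these groups, and with the number as a block the adjusted p of Zfp110 was 0.0168 and 0.00701, while DESeq2 gave 0.0317 and 0.00596. Zfp951, a KRAB gene chosen after its values were seen, had 1.41, 2.56 and 0.471 CPM in Suv39h1KO IfnarWT cells against 4.8, 7.44 and 6.63 in Suv39h1WT IfnarWT cells. In IfnarKO cells it had 0.928, 1.62 and 2.54 CPM with Suv39h1KO against 4.64, 4.16 and 6.2 with Suv39h1WT. The Suv39h1KO libraries were all lower in both pairs, and the log2 fold changes were -2.08 (SE 0.50, adjusted p = 0.253) and -1.55 (SE 0.50, adjusted p = 0.539) by edgeR. With the number as a block the adjusted p was 0.0583 and 0.104, and DESeq2 gave 0.00367 and 0.1.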

How the data were processed

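The authors deposited raw read counts per gene for 65 libraries, made from polyadenylated RNA with a stranded kit per the labels' protocols. STAR, HOMER, DESeq2 and the build mm10 are named in the submitters' processing notes, without versions there. The counts were tested as deposited with edgeR 4.0.16 in R 4.3.3: TMM factors, its default filter on low counts, 1 term per group, a separate fit for each of the 3 sets of groups, the quasi-likelihood test and Benjamini-Hochberg adjustment over all genes tested, with a threshold of 0.05. The steps were tested on simulated data. Members were chosen on plain CPM (count over column total); values per library are TMM-scaled CPM, which is comparable within a set of groups only. DESeq2 1.42.0, other scalings and filters, replicate blocks and leaving out each of the 65 libraries were the alternatives. Same-numbered libraries were taken as paired where every correlation of their deviations from the group means was over 0.1: the Suv39h1 and Ifnar groups (mean r 0.451, lowest 0.268), MyD88KO (0.589, 0.484) and the high run of WT (0.450, 0.315). No 2 libraries of a group agreed within sampling noise (chi-square over degrees of freedom from 5.08). The members and lists were chosen with earlier results of these data known. Members named are those of the role lists and, per comparison, up to 6 that rose and 6 that fell most among those past the threshold with at least 5 CPM in the higher group; the others named were chosen after their values were seen. Sequences are from RefSeq on GRCm38.p6. Protein sequences were not used here.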

Additional observations from a re-analysis of the deposited data

Results flagged for a closer look

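Within groups of 5 or 6 WT libraries, 4 values of single libraries stood apart from the others of their group, for members named or listed here. At 4 h they were Zfp296 at 41.8 CPM and Zfp467 at 8.88 CPM, both in the same library, replicate 3 of the low run. The others were Zfp809 at 16.8 CPM at 0 h and Zfp513 at 47.3 CPM at 2 h, also in low-run libraries. Chance sets a library apart in about 1 of 20 groups, and 144 groups were examined.

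The response to LPS differed between TrifKO-labelled and MyD88KO cells for 2 members at 2 h and 8 at 4 h by edgeR's interaction test. The differences of the log2 fold changes, TrifKO-labelled minus MyD88KO, were -1.03 for Zfp456 and 1.58 for Zfp703 at 2 h. At 4 h they were -0.87 for Zfp800, -0.84 for Zfp456, -0.67 for Zfp319, 0.48 for Zfp655, 0.67 for Zfp799, 1.18 for Zfp523, 1.25 for Zfp703 and 1.45 for Zfp719. The 4 h calls of Zfp655, Zfp799 and Zfp456 were lost on leaving out 8, 7 and 4 of the 12 libraries in turn, and those of the other members at 4 h were lost in none.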

How the results depend on the processing

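With total counts in place of TMM factors the direction turned for Zfp131 (-0.224) and Zfp622 (-0.239) between 4 and 2 h in WT cells, for Zfp622 against WT at 4 h in MyD88KO (0.235) and TrifKO-labelled cells (0.333), and for Zfp952 in the same comparisons (0.014 and 0.013). That scaling called 128 members in MyD88KO 4 h, 110 in TrifKO-labelled 2 h, and against WT 156 in MyD88KO 4 h, 87 in MyD88KO 2 h and 165 in TrifKO-labelled 4 h. With only the compared groups fitted, which leaves fewer libraries, 48 were called in MyD88KO 4 h, 48 in WT 4 h against 2 h, 24 and 1 in MyD88KO against WT at 4 and 2 h, 1 in TrifKO-labelled against WT at 2 h, 3 and 2 for gRNA_1 at 0 and 2 h, 0 for gRNA_2 at 2 h, and 6 and 0 in MyD88KO and TrifKO-labelled 4 h against 2 h. With library run and cohort as a replicate block 102 were called in TrifKO-labelled 2 h, 78 in 4 h, 71 against WT at 2 h, 24 for the 4 h interaction, and 59 and 21 in MyD88KO and TrifKO-labelled 4 h against 2 h. With the cohort number as a replicate block 1 and 1 were called for Suv39h1KO, 9 and 12 for gRNA_1 and 19 and 25 for gRNA_2 at 0 and 2 h, and 6 in TrifKO-labelled 4 h against 2 h; the numbers did not pair the TrifKO-labelled (lowest r -0.264) or RAW264.7 libraries (0.00341). DESeq2 called 2 and 1 for Suv39h1KO in IfnarWT and IfnarKO cells, 3 and 9 for gRNA_1 and gRNA_2 at 0 h, and 11 in TrifKO-labelled 4 h against 2 h. Without a filter 4 were called for gRNA_2 at 2 h. WT libraries of the low run alone gave 36 in WT 4 h against 2 h, 24 and 1 for MyD88KO at 4 and 2 h, 9 for TrifKO-labelled cells at 2 h, 99 for WT 2 h against 0 h and 1 for TrifKO-labelled 0 h, and those of the high run 80 and 44 at 2 h and 4 for MyD88KO 0 h. A member threshold of 10 CPM gave 0.613% in TrifKO-labelled 4 h against 2 h. The cause of these shifts was not tested where the number of libraries does not give it.

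Leaving out single libraries gave 55 to 67 called in MyD88KO 2 h, 59 to 67 in 4 h, 37 to 54 in TrifKO-labelled 2 h, 23 to 37 in 4 h, 70 to 92 in WT 4 h against 2 h, 32 to 57 and 12 to 55 (16 without WT 2 h replicate 2 of the high run) in MyD88KO against WT at 4 and 2 h, 75 to 100 and 6 to 28 in TrifKO-labelled against WT, 0 to 0 for Suv39h1KO and IfnarKO, 81 to 90 in RAW264.7 with gRNA_Ctrl, 84 to 103 with gRNA_1 and 79 to 104 with gRNA_2, 0 to 0 and 1 to 4 for gRNA_1 and 0 to 6 and 0 to 14 for gRNA_2 against gRNA_Ctrl at 0 and 2 h, 148 to 157 and 146 to 152 in WT 2 h and 4 h against 0 h, 1 to 2 and 5 to 9 for the interactions, and 11 to 30 and 0 to 5 in MyD88KO and TrifKO-labelled 4 h against 2 h. Of the other values of named members under the alternatives 6650 kept direction and side of the threshold, 267 lost the call and 301 gained it, and with single libraries left out 7969 kept both, 392 lost it and 71 gained it. Counting error is largest for members near 5 CPM.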
